A study of Capra hircus with 6 samples.

Results

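The insulin-like growth factor (IGF) system was followed here through 10 genes: the ligands IGF1 and IGF2, the receptors IGF1R and IGF2R, and the binding proteins IGFBP2, IGFBP3, IGFBP4, IGFBP5, IGFBP6 and IGFBP7. They were chosen by name, and all 10 were found among the 17504 genes of the deposited tables. Whole-ovary RNA had been sequenced from 3 Jintang black goats, described as prolific, and 3 Tibetan goats, described as non-prolific, all at the follicular stage of the cycle, before ovulation. Each library was the ovary of 1 goat, called Jintang 1 to 3 and Tibetan 1 to 3 here, and the study asked which ovarian transcripts differ between the breeds. The labels give no age, parity, follicle size or litter record for these animals. Breed and the prolificacy described with it are the properties known to separate the groups, and these cannot be told apart.

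IGF1 and IGF2 are small secreted peptides related to insulin. Both act through IGF1R, a receptor tyrosine kinase at the cell surface, whereas IGF2R binds IGF2 and carries it to lysosomes for breakdown. Most IGF in follicular fluid and blood is held by binding proteins, which hide the ligands from the receptors until a protease cleaves them. In follicles of ruminants, IGFs act with follicle-stimulating hormone on granulosa cell growth and steroid synthesis, and binding protein levels in the fluid are known to differ between dominant and atretic follicles.

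Expression was given as FPKM, a count of sequenced fragments corrected for transcript length and library size, so levels of different genes can be set beside each other. Between ovaries this holds less strictly, because FPKM was not rescaled and a few abundant genes can lower the rest. FPKM summed to between 602255 and 682801 per library. Low values are spaced as whole fragments would be, and that spacing gave depths of 0.926 to 1.03 relative to Tibetan 1, while absolute depth is unknown. Ovarian cell types differed widely between the animals. The 6 luteal marker genes found in the tables summed to 5812, 11035 and 403 FPKM in Jintang 1, 2 and 3, against 331, 485 and 1681 FPKM in Tibetan 1, 2 and 3. TIMP1 made up most of this sum in every ovary. The other 5 markers summed to 509, 1819 and 96.1 FPKM in Jintang 1, 2 and 3, against 78.4, 114 and 384 FPKM in Tibetan 1, 2 and 3. Jintang 2 was highest on both sums, while Jintang 1 was far above Tibetan 3 only with TIMP1 included. Oocyte genes were low, with the 8 markers summing to 7.07, 4.11 and 23.8 FPKM in Jintang 1, 2 and 3 and to 0.85, 21.5 and 4.62 FPKM in Tibetan 1, 2 and 3. The granulosa marker FSHR, the follicle-stimulating hormone receptor, was listed at 0 in Tibetan 1 and ranged from 1.21 to 10.7 FPKM in all others. RNA of whole ovaries cannot tell fewer cells of a type from less RNA per cell.

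The binding proteins and IGF2 were among the most abundant transcripts of these ovaries, and the receptors and IGF1 were far lower. IGFBP7 averaged 795 FPKM over the 6 libraries, IGFBP5 682.96, IGFBP6 647, IGFBP4 629, IGF2 548, IGFBP2 329 and IGFBP3 175 FPKM. IGF2R followed at 51.1, IGF1R at 21.5 and IGF1 at 16.8 FPKM. By mean level IGFBP7 ranked 131 of all 17504 genes, IGF2 161 and IGF1 5409. The order within the system was firm at 1 step: IGFBP3 lay above IGF2R in 6 of 6 ovaries and their ranges over the libraries did not overlap. All other neighbours in the order had overlapping ranges, and IGFBP5 exceeded IGFBP6 in 3 of 6 ovaries. IGF2R was above IGF1R in 6 of 6 ovaries, by a ratio of 3.01, 3.19 and 1.74 in Jintang 1, 2 and 3 and of 2.33, 2.66 and 1.37 in Tibetan 1, 2 and 3. The tables list 9 transcripts for IGF1 and 1 for each other member, and how well these models cover each gene was not tested.

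**Figure D1:**
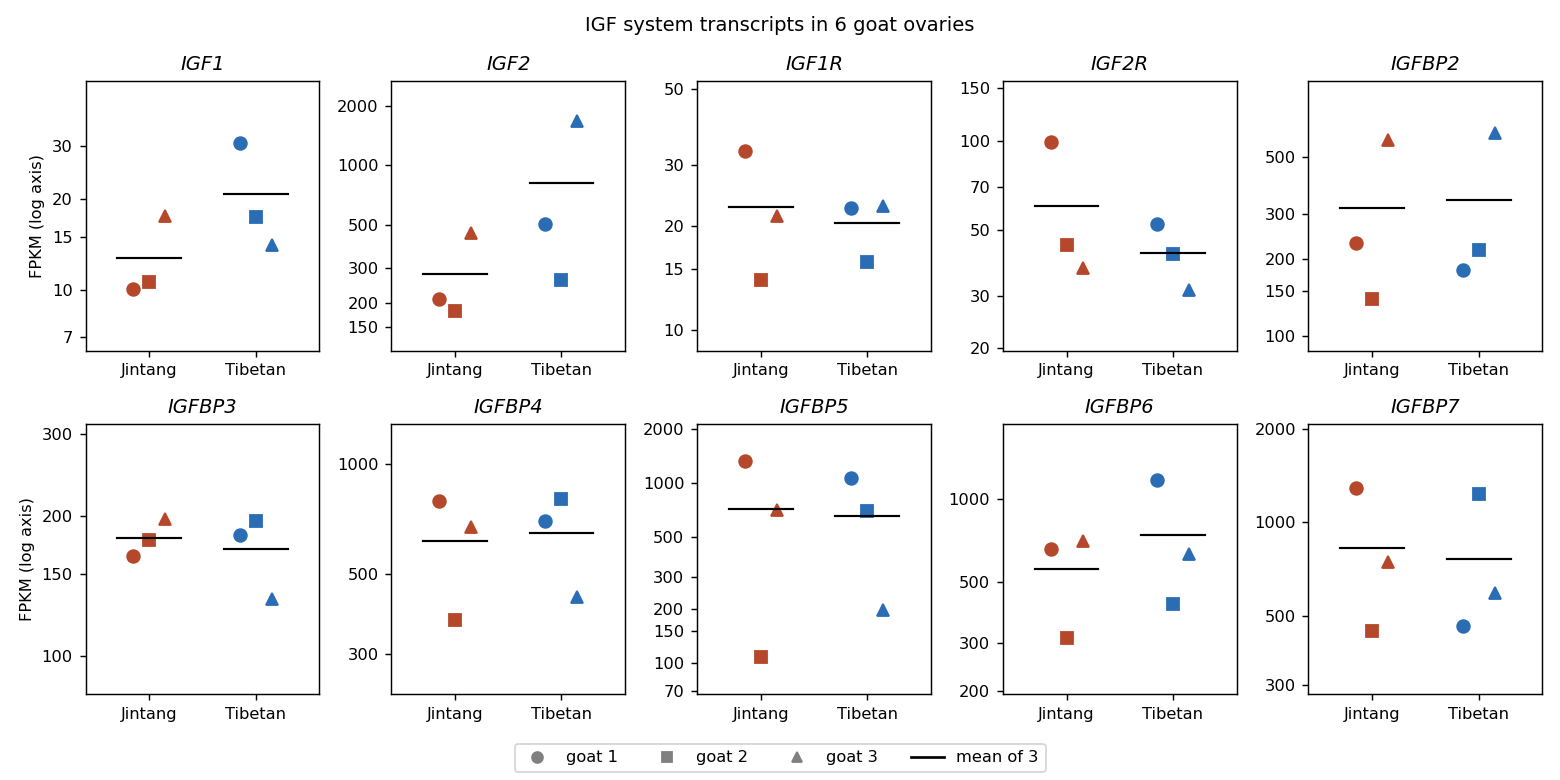
FPKM (log axis) of the 10 IGF system genes in the ovaries of 3 Jintang and 3 Tibetan goats; each point is 1 goat and the line is the mean of 3. The breeds overlap in every panel, and IGFBP5 and IGF2 spread most between goats.

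None of the 10 genes passed the test for a difference between the breeds. In the limma fit over 13067 genes, 0 of the 10 members passed an adjusted p (Benjamini-Hochberg) of 0.05, beside 0% of all genes tested. At an unadjusted p under 0.05 there were again 0 members, beside 806 genes or 6.17% of all, and the ranges of the breeds overlapped for all 10 members, where 9.9% of all genes had ranges without overlap. The log2 fold change, taken as Jintang minus Tibetan after adding 1 to each FPKM, was negative for 6 members and positive for 4 (negative for 4 with median-ratio scaling), where 59% of all genes were negative. The median was -0.11 for the members and -0.10 over all genes. All 10 members passed the filter on low values. The p-values set each breed difference against the spread between goats of a breed, as limma estimates it. The labels do not say that the goats were otherwise matched, so breed cannot be told apart from other properties of these animals.

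The ligands had the smallest p-values of the system. IGF1 (GeneID 100860838), the growth factor made in the liver under growth hormone and locally in many tissues, was at 10.1, 10.6 and 17.6 FPKM in Jintang 1, 2 and 3, against 30.7, 17.5 and 14.1 FPKM in Tibetan 1, 2 and 3. Tibetan 1 was highest, Jintang 1 and 2 were lowest, and Jintang 3 lay just above Tibetan 2, so the groups overlapped. The means were 12.8 ± 4.20 FPKM in Jintang and 20.8 ± 8.78 FPKM in Tibetan ovaries (SD, n = 3 each), with a log2 fold change of -0.63 (SE 0.36, 95% interval -1.46 to 0.20, limma adjusted p = 0.743).

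IGF2 (GeneID 100861277), which theca cells of ruminant follicles are known to make, was at 209, 183 and 453 FPKM in Jintang 1, 2 and 3, against 501, 261 and 1678 FPKM in Tibetan 1, 2 and 3. Tibetan 3 stood far above the other 5 ovaries, and Jintang 3 lay between Tibetan 2 and Tibetan 1. The means were 282 ± 149 FPKM in Jintang and 813 ± 759 FPKM in Tibetan ovaries (SD, n = 3 each), with a log2 fold change of -1.22 (SE 0.68, 95% interval -2.78 to 0.35, limma adjusted p = 0.743). The value rested on Tibetan 3 in size but not in sign: without Tibetan 3 it was -0.48, and without Tibetan 2 it was -1.82. IGF2 exceeded IGF1 in every ovary, by a ratio of 20.8, 17.2 and 25.7 in Jintang 1, 2 and 3 and of 16.3, 14.9 and 119 in Tibetan 1, 2 and 3. Apart from Tibetan 3, the ratio thus stayed between 14.9 and 25.7 while IGF2 itself varied from 183 to 501 FPKM.

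Tibetan 3, the ovary highest in IGF2, was also the highest in CYP17A1 and INHA, but not in most granulosa markers. CYP17A1 (listed as LOC102182663), with which theca cells make androgens, was at 1.99, 4.24 and 103 FPKM in Jintang 1, 2 and 3, against 16.3, 152 and 719 FPKM in Tibetan 1, 2 and 3. The inhibin subunit gene INHA, a granulosa product, was at 9.56, 132 and 144 FPKM in Jintang 1, 2 and 3, against 51.4, 198 and 1194 FPKM in Tibetan 1, 2 and 3. The 7 theca markers found of 8 summed to between 656 and 12846 FPKM in Jintang and between 303 and 2228 FPKM in Tibetan ovaries. Jintang 2, lowest in IGF2, had the highest sum, mostly from CYP11A1, APOA1 and STAR at 5995, 3581 and 3130 FPKM. The luteal marker sum was also highest in Jintang 2, while CYP17A1 was at 4.24 FPKM there, so the theca sum need not reflect theca cells. None of those 7 was at 0 throughout. The 12 granulosa markers summed to 647, 479 and 591 FPKM in Jintang 1, 2 and 3, against 376, 725 and 1482 FPKM in Tibetan 1, 2 and 3. INHA made up most of the sum in Tibetan 3: the other 11 markers summed to 638, 346 and 447 FPKM in Jintang 1, 2 and 3, against 325, 526 and 288.5 FPKM in Tibetan 1, 2 and 3, lowest in Tibetan 3. That ovary had the highest value of 3 of the 12 granulosa markers and the lowest of 3, and the highest of 4 of the 7 theca markers. The part of theca and granulosa cells in the level of IGF2 was not tested.

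Neither receptor separated the breeds. IGF1R (GeneID 100861165), the signalling receptor, was at 32.9, 13.9 and 21.4 FPKM in Jintang 1, 2 and 3, against 22.5, 15.7 and 22.9 FPKM in Tibetan 1, 2 and 3. Both the highest and the lowest value came from Jintang ovaries, with the Tibetan ovaries inside their range. The fold change was 0.09 on the log2 scale (SE 0.35, 95% interval -0.72 to 0.90, limma adjusted p = 0.954), and it was -0.21 without Jintang 1 and -0.08 without Tibetan 2.

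IGF2R (GeneID 100860744), the receptor that clears IGF2, was at 99.1, 44.4 and 37.2 FPKM in Jintang 1, 2 and 3, against 52.5, 41.7 and 31.4 FPKM in Tibetan 1, 2 and 3. Jintang 1 was above all other ovaries, and the remaining 5 were mixed. Between the breeds the log2 fold change was 0.41 (SE 0.40, 95% interval -0.52 to 1.34, limma adjusted p = 0.812), and it was -0.01 without Jintang 1. Macrophage markers were also highest in Jintang 1: the 10 found of 11 summed to 1746, 192 and 423 FPKM in Jintang 1, 2 and 3, against 105, 318 and 201 FPKM in Tibetan 1, 2 and 3, and none was at 0 throughout. Their part in the level of IGF2R was not tested. IGF2R and IGF2 lay at opposite ends in Tibetan 3, which had the lowest IGF2R and the highest IGF2 of the 6 ovaries.

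The insulin receptor INSR, which shares its signalling route with IGF1R and can form hybrid receptors with it, was at 32.4, 22.1 and 53.8 FPKM in Jintang 1, 2 and 3, against 61.6, 49.5 and 44.4 FPKM in Tibetan 1, 2 and 3. The groups overlapped through Jintang 3 (log2 fold change -0.59, SE 0.35, limma adjusted p = 0.743). INSR was 0.985, 1.59 and 2.51 times the level of IGF1R in Jintang 1, 2 and 3 and 2.74, 3.16 and 1.94 times that level in Tibetan 1, 2 and 3. Of 7 listed relatives of the system outside the 10 members, 5 were in the tables and INSR was the 1 that passed the filter.

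Among the binding proteins, IGFBP5 varied most. IGFBP5 (GeneID 100860950), which binds both ligands and also heparin and matrix proteins, was at 1323, 108 and 709 FPKM in Jintang 1, 2 and 3, against 1060.5, 699 and 198 FPKM in Tibetan 1, 2 and 3. Each breed held both high and low ovaries, with Jintang 2 and Tibetan 3 low. The highest value was 12.3 times the lowest, a spread above that of 95.7% of the 10032 genes with a mean of at least 5 FPKM. The log2 fold change was -0.18 (SE 0.96, 95% interval -2.38 to 2.03, limma adjusted p = 0.965), so a change of several fold in either direction could not be seen with 3 goats per breed. It was 0.88 without Jintang 2, 0.33 without Tibetan 1, 0.03 without Tibetan 2 and -0.93 without Jintang 1.

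IGFBP2 (GeneID 102175172), known as a granulosa cell product in ruminants that falls in the fluid of growing dominant follicles, was at 231, 140.1 and 582 FPKM in Jintang 1, 2 and 3, against 181, 217 and 621 FPKM in Tibetan 1, 2 and 3. Jintang 3 and Tibetan 3 were high and the other 4 ovaries low, so that each breed had 1 high ovary. This left a log2 fold change of -0.12 (SE 0.63, 95% interval -1.57 to 1.33, limma adjusted p = 0.964), whose sign turned with median-ratio scaling (0.0048), without Jintang 2 (0.34) and without Tibetan 3 (0.42). IGFBP2 and IGFBP5 are neighbours in the order of protein-coding genes of the goat assembly ARS1.2. They did not share a pattern here: IGFBP5 was 5.73, 0.770 and 1.22 times IGFBP2 in Jintang 1, 2 and 3, and 5.86, 3.22 and 0.319 times IGFBP2 in Tibetan 1, 2 and 3. Among all pairs of members, IGFBP2 with IGFBP5 and IGF2 with IGFBP5 differed most, with root-mean-square differences of 1.55 and 1.83 between their centred log2 values.

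IGFBP3 (GeneID 102174541), the main carrier of IGF in blood, was the steadiest member. It was at 164, 178 and 197 FPKM in Jintang 1, 2 and 3, against 182, 195 and 132 FPKM in Tibetan 1, 2 and 3. Tibetan 3 was lowest, Jintang 3 was highest, and the highest value was 1.49 times the lowest, a spread above that of just 8.53% of the 10032 genes with a mean of at least 5 FPKM. Jintang minus Tibetan gave a log2 fold change of 0.10 (SE 0.28, 95% interval -0.56 to 0.75, limma adjusted p = 0.939), and -0.07 without Tibetan 3. Its neighbour in ARS1.2, IGFBP1, was listed at 7.51, 0 and 0 FPKM in Jintang 1, 2 and 3 and at 0.12, 1.27 and 0 FPKM in Tibetan 1, 2 and 3, below the filter for testing.

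IGFBP4 (GeneID 100860812), an inhibitor of IGF action that the protease PAPPA cleaves in follicular fluid, was at 792, 374 and 673 FPKM in Jintang 1, 2 and 3, against 698, 804 and 433 FPKM in Tibetan 1, 2 and 3. Jintang 2 and Tibetan 3 were again the lowest ovaries, 1 of each breed. With all 6 libraries the log2 fold change was -0.10 (SE 0.42, 95% interval -1.07 to 0.88, limma adjusted p = 0.960). Its sign turned with median-ratio scaling (0.03), without Jintang 2 (0.23) and without Tibetan 2 (0.09).

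IGFBP6 (GeneID 102180462), which prefers IGF2 over IGF1, was at 658, 313 and 702 FPKM in Jintang 1, 2 and 3, against 1165, 416 and 629.9 FPKM in Tibetan 1, 2 and 3. Tibetan 1 was highest and Jintang 2 lowest, while the other 4 ovaries were mixed between the breeds. The breeds differed by -0.36 on the log2 scale (SE 0.50, 95% interval -1.51 to 0.79, limma adjusted p = 0.871), and by 0.01 without Jintang 2 and 0.04 without Tibetan 1.

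IGFBP7 (GeneID 102184134), a low-affinity relative found around blood vessels in many tissues, was at 1295, 448 and 744 FPKM in Jintang 1, 2 and 3, against 463, 1231 and 589.6 FPKM in Tibetan 1, 2 and 3. Jintang 1 and Tibetan 2 were high, and Jintang 2 and Tibetan 1 were low. On the log2 scale the breeds differed by 0.12 (SE 0.53, 95% interval -1.10 to 1.34, limma adjusted p = 0.960), and by -0.27 without Jintang 1 and -0.17 without Tibetan 1. The 11 endothelial markers found of 12 summed to 456, 401 and 238 FPKM in Jintang 1, 2 and 3, against 202, 330 and 212 FPKM in Tibetan 1, 2 and 3, so Jintang 2 was low in IGFBP7 with the second highest endothelial sum. None of the 11 was at 0 throughout.

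**Figure D2:**
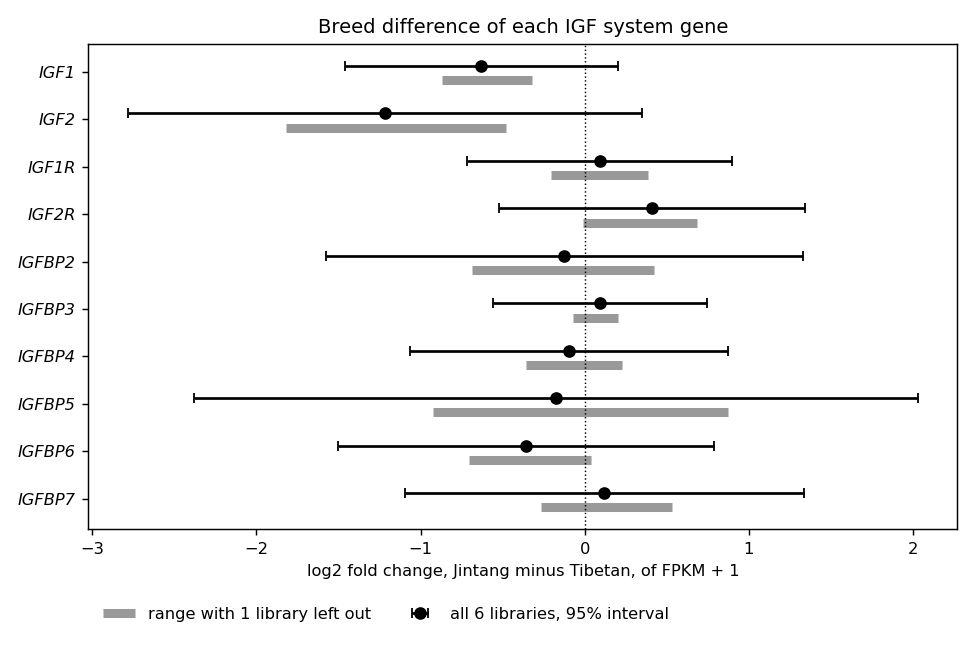
Log2 fold change (Jintang minus Tibetan, FPKM + 1) of each IGF system gene; points with bars are the limma estimate over 6 libraries with its 95% interval, and grey bars span the values with 1 library left out. All 10 intervals include 0, and only the grey bars of IGF1 and IGF2 stay on 1 side of it.

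Most members were low in Jintang 2. It was the lowest of the 6 ovaries for 7 of the 10 members, including 5 of the 6 binding proteins, and the highest for 0. The share of all genes lowest in Jintang 2 was not determined, so this count cannot be called particular to the members. IGF1, IGF2R and IGFBP3 had their lowest values in other ovaries. The 10 members made up 0.799%, 0.290% and 0.618% of the summed FPKM in Jintang 1, 2 and 3, against 0.723%, 0.571% and 0.712% in Tibetan 1, 2 and 3. The binding proteins summed to 4463, 1561 and 3608 FPKM in Jintang 1, 2 and 3, against 3750.3, 3562 and 2604 FPKM in Tibetan 1, 2 and 3. Luteal markers had their highest sum in Jintang 2, but it held the highest value of only 3 of the 6 luteal and 2 of the 7 theca markers. STAR, which carries cholesterol into mitochondria, was at 3130.3 FPKM there, while the remaining 5 ovaries ranged from 8.91 to 139 FPKM. Smooth muscle markers, which are abundant in ovarian stroma, were lowest there: the 8 summed to 3745, 2080.1 and 8143 FPKM in Jintang 1, 2 and 3, against 8349, 4161 and 5827 FPKM in Tibetan 1, 2 and 3. The part of these cell types in the low binding protein levels of Jintang 2 was not tested.

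The make-up of the binding protein pool differed more between goats than between breeds. IGFBP7 held 29.0%, 28.7% and 20.6% of the summed FPKM of the 6 binding proteins in Jintang 1, 2 and 3, against 12.4%, 34.6% and 22.6% in Tibetan 1, 2 and 3. IGFBP6 held 14.7%, 20.1% and 19.4% in Jintang 1, 2 and 3, against 31.1%, 11.7% and 24.2% in Tibetan 1, 2 and 3. IGFBP5 held between 6.91% and 29.7% in Jintang and between 7.61% and 28.3% in Tibetan ovaries. The most abundant binding protein was IGFBP7 in 3 ovaries, IGFBP6 in 2 and IGFBP5 in 1. IGFBP4 kept the narrowest relative range, from 17.7% to 23.96% in Jintang and from 16.6% to 22.6% in Tibetan ovaries. IGFBP2 reached 16.1% in Jintang 3 and 23.9% in Tibetan 3 and stayed at or below 8.98% in the other 4 ovaries. IGFBP3 held 11.4% in Jintang 2, where the other binding proteins were low, and between 3.67% and 5.48% elsewhere.

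**Figure D3:**
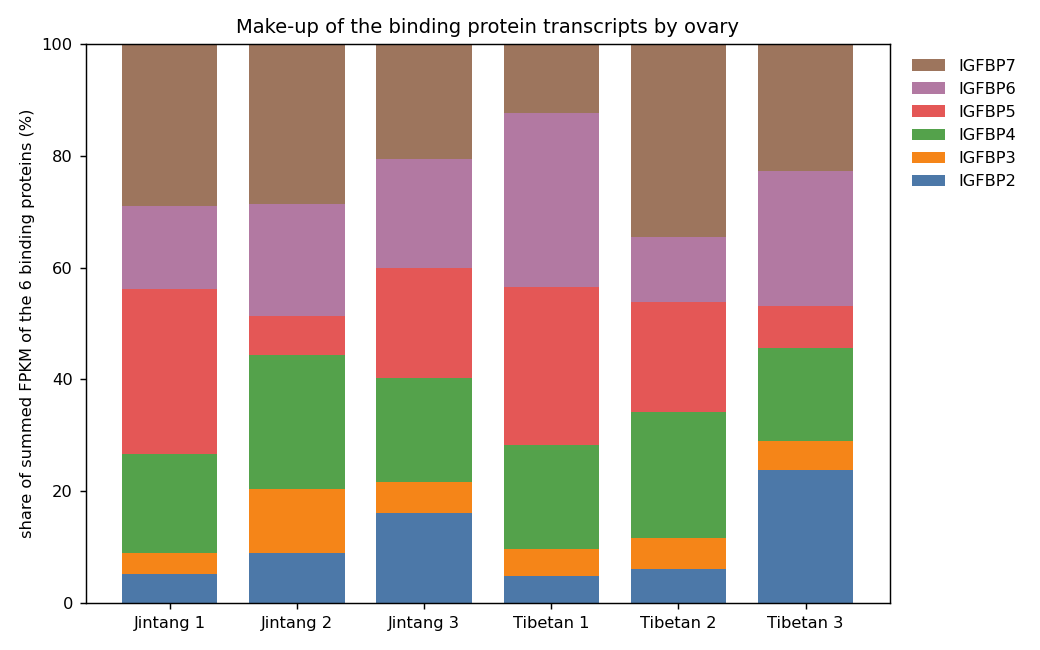
Share (%) of each of the 6 binding proteins in their summed FPKM, 1 bar per ovary, Jintang goats left and Tibetan goats right. The widths of IGFBP5, from 6.91% to 29.7%, and IGFBP2, from 4.83% to 23.9%, vary most relative to their size, and no share separates the breeds.

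Set against the ligands, binding proteins were in excess in every ovary at the RNA level. Their summed FPKM was 20.4, 8.07 and 7.66 times that of IGF1 and IGF2 together in Jintang 1, 2 and 3, and 7.06, 12.8 and 1.54 times in Tibetan 1, 2 and 3. Tibetan 3 had the smallest excess, with 2604 FPKM of binding proteins beside 1692 FPKM of ligands. Jintang 1 had the largest, with 4463 beside 219 FPKM. These ratios count transcripts and say nothing of protein or of binding protein cleavage.

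The tested genes among the binding protein proteases and their partners had positive fold changes, none of which passed the test. The list holds proteases as well as inhibitors of a protease, so a shared sign cannot be read as more or less cleavage. Of 8 listed proteases and partners 7 were in the tables and 5 were tested. Of these 5, 0 passed an adjusted p of 0.05 and 5 had a positive log2 fold change, where 59% of all genes were negative. Their median was 1.26 beside -0.10 over all genes. STC2 passed the filter on low values through the Jintang ovaries, as only Tibetan 2 of the Tibetan ovaries reached 1 FPKM. Such passing favours a positive sign, so the count and the median are given as a description. ADAM12, a metalloproteinase that cleaves IGFBP3 and IGFBP5, was at 12.5, 13.3 and 4.64 FPKM in Jintang 1, 2 and 3, against 2.02, 3.84 and 2.28 FPKM in Tibetan 1, 2 and 3 (log2 fold change 1.5, SE 0.42, limma adjusted p = 0.743). STC2, a stanniocalcin that inhibits PAPPA, was at 9.43, 5.43 and 1.19 FPKM in Jintang 1, 2 and 3, against 0.85, 1.16 and 0.45 FPKM in Tibetan 1, 2 and 3 (log2 fold change 1.55, SE 0.56, limma adjusted p = 0.743). In both genes the Jintang ovaries lay above the Tibetan ovaries without overlap, as in 3.2% of all genes, and for STC2 Jintang 3 exceeded Tibetan 2 by 1.19 against 1.16 FPKM. HTRA1, a serine protease able to cleave IGFBP5, was at 1003, 219.9 and 225 FPKM in Jintang 1, 2 and 3, against 175, 247 and 82.8 FPKM in Tibetan 1, 2 and 3 (log2 fold change 1.26, limma adjusted p = 0.743).

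The 10 fibroblast and stromal markers summed to 11570.1, 6179 and 4130 FPKM in Jintang 1, 2 and 3, against 4321, 4258 and 2357 FPKM in Tibetan 1, 2 and 3, and none was at 0 throughout. For 6 of the 10 the top ovary was Jintang 1, whereas Jintang 2 was top for 0 and bottom for 2. Their part in the levels of the proteases was not tested. STC1, the related stanniocalcin, was at 29.8, 13.5 and 6 FPKM in Jintang 1, 2 and 3, against 0.67, 11.8 and 35.2 FPKM in Tibetan 1, 2 and 3, with wide overlap (log2 fold change 0.67, SE 1.04, limma adjusted p = 0.888). PAPPA, the protease of IGFBP4, stood at 8.35 FPKM in Jintang 2 and did not exceed 0.47 FPKM in the others. It was not tested because it did not pass the filter.

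Upstream of IGF1, the growth hormone receptor GHR was at 10.1, 22.5 and 13 FPKM in Jintang 1, 2 and 3, against 16.1, 16.1 and 15.2 FPKM in Tibetan 1, 2 and 3 (log2 fold change -0.12, SE 0.32, 95% interval -0.86 to 0.61, limma adjusted p = 0.928). Its kinase JAK2 was at 4.39, 5.05 and 5.25 FPKM in Jintang 1, 2 and 3, against 7.27, 7.29 and 6.18 FPKM in Tibetan 1, 2 and 3. The Jintang ovaries lay below the Tibetan ovaries without overlap, as in 6.7% of all genes, and the difference did not pass (log2 fold change -0.42, SE 0.26, limma adjusted p = 0.743). SOCS2, a feedback inhibitor of growth hormone signalling, was highest in Jintang 3 at 36.4 FPKM, with the remaining ovaries at 12.6 to 20.7 FPKM. Of the 5 genes of that list 3 were tested, 0 passed, and the median log2 fold change was -0.12.

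Downstream of IGF1R, 37 of 40 listed signalling genes were tested and 0 passed. Their log2 fold changes were positive for 15 and negative for 22, with a median of -0.09 beside -0.10 over all genes. SOCS3, an inhibitor of cytokine and insulin signalling, was at 65.2, 33.6 and 16.5 FPKM in Jintang 1, 2 and 3, against 11.5, 6.54 and 24.5 FPKM in Tibetan 1, 2 and 3 (log2 fold change 1.35, SE 0.58, limma adjusted p = 0.743). It was the 1 gene of this list with an unadjusted limma p under 0.05 (0.0463), beside 6.17% of all genes. Among the proteases and partners, ADAM12 and STC2 had smaller unadjusted limma p-values (0.00726 and 0.0234), so SOCS3 does not stand out. FOXO4, a transcription factor that AKT inactivates, was at 19.0, 7.62 and 21.1 FPKM in Jintang 1, 2 and 3, against 31.0, 25.0 and 25.2 FPKM in Tibetan 1, 2 and 3. Its Jintang values lay below the Tibetan values without overlap, as in 6.7% of all genes (log2 fold change -0.84, SE 0.38, limma adjusted p = 0.743). Of the 37 tested genes, 1 lay higher and 2 lower in Jintang without overlap, where 9.9% of all genes had ranges without overlap. The kinase gene BRAF was at 3.19, 2.98 and 5.73 FPKM in Jintang 1, 2 and 3, against 8.22, 7.35 and 5.12 FPKM in Tibetan 1, 2 and 3, with overlap (log2 fold change -0.69, SE 0.33, limma adjusted p = 0.743).

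**Figure D4:**
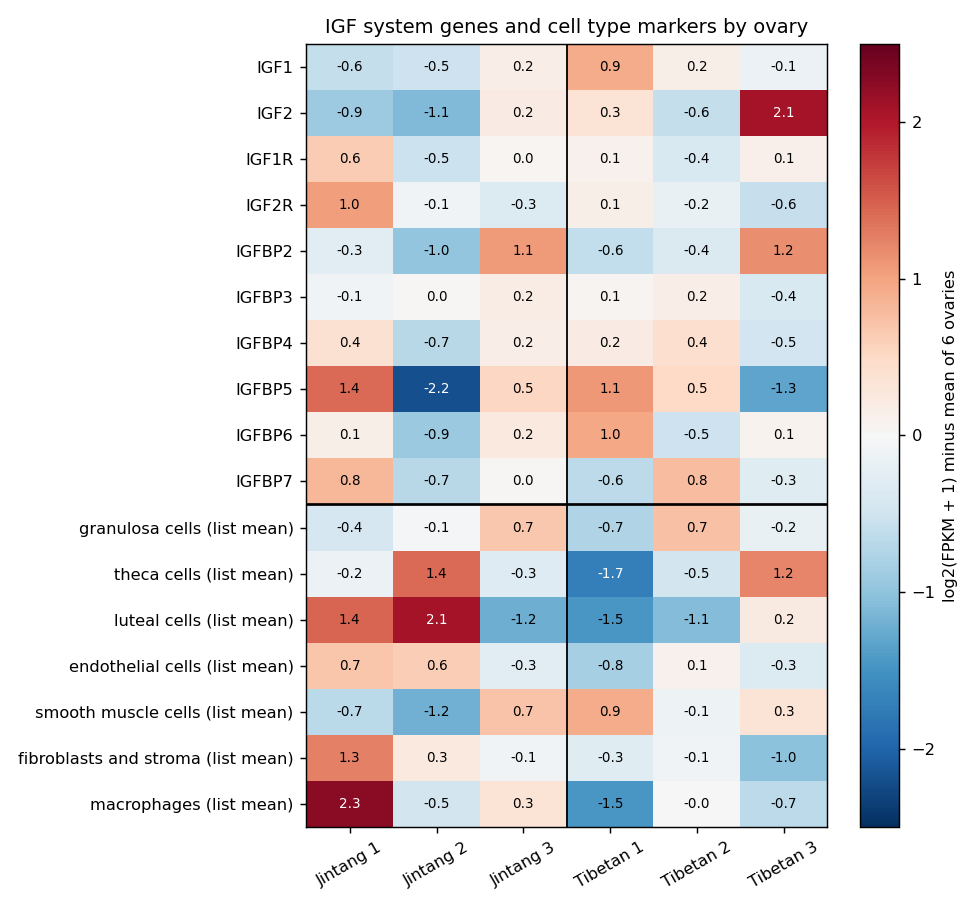
Log2(FPKM + 1) minus the mean of 6 ovaries for the 10 IGF system genes (above the line) and for the mean of 7 cell type marker lists (below it), 1 column per ovary, Jintang left. IGFBP5 is low in Jintang 2 (-2.19) and Tibetan 3 (-1.32), and IGF2 is high in Tibetan 3.

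Relative to its mean over the 6 ovaries, the log2 value of IGFBP5 was 1.41, -2.19 and 0.51 in Jintang 1, 2 and 3, against 1.09, 0.49 and -1.32 in Tibetan 1, 2 and 3. The mean log2 value of the theca list was highest in Jintang 2 and Tibetan 3 (7.78 and 7.58), where IGFBP5 was lowest. The summed FPKM of the same list was 7558 in Jintang 1, where IGFBP5 was highest, and 2228 in Tibetan 3. APOA1 made up most of the sum in Jintang 1, at 6824 FPKM. The other 6 theca markers summed to 734, 9265 and 404 FPKM in Jintang 1, 2 and 3, against 167, 396 and 2074 FPKM in Tibetan 1, 2 and 3. In Jintang 2 that sum came mostly from CYP11A1 and STAR, at 5995 and 3130 FPKM, with CYP17A1 at 4.24 FPKM. IGF1 was highest in Tibetan 1, at 30.7 FPKM, where smooth muscle markers had their highest sum (8349 FPKM). That sum was nearly as high in Jintang 3 (8143 FPKM), where IGF1 was at 17.6 FPKM. These are observations of 6 ovaries, and the part of these cell types was not tested.

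The genes nearest to each member in pattern were searched among those with a symbol and a mean of at least 5 FPKM, by the root-mean-square difference between centred log2 values over the 6 libraries. With so many candidates and 6 libraries, close patterns arise easily, and they are given as a description. IGF2 was nearest to HS3ST2, a heparan sulfate sulfotransferase gene, which was at 1.57, 1.32 and 4.18 FPKM in Jintang 1, 2 and 3, against 4.71, 3.03 and 26.1 FPKM in Tibetan 1, 2 and 3. The difference was 0.20, while IGF2 itself had a root-mean-square deviation of 1.07 around its mean. IGFBP5 was nearest to MXRA8, a matrix-associated membrane protein gene, at 493, 40.0 and 315 FPKM in Jintang 1, 2 and 3 and at 425, 388 and 61.1 FPKM in Tibetan 1, 2 and 3 (difference 0.26, deviation of IGFBP5 1.31). IGFBP2 was nearest to S100A1, a calcium-binding protein gene (difference 0.24, deviation 0.82), which was highest in Jintang 3 and Tibetan 3 as well.

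The differences were smaller for the steadier members, which the measure itself favours, because a gene that varies little can differ little from other steady genes. IGF1 was nearest to CRTC3, a coactivator of CREB (difference 0.08, deviation 0.51), and IGF1R to SDC4, a cell-surface proteoglycan gene (difference 0.07, deviation 0.38). IGF2R was nearest to AEBP1, a gene of a collagen-binding matrix protein (difference 0.13, deviation 0.52), with which it shared the high value in Jintang 1. IGFBP4 was nearest to LHFP (difference 0.09, deviation 0.43), IGFBP6 to KLHL22 (difference 0.06, deviation 0.60) and IGFBP7 to TNFAIP8 (difference 0.19, deviation 0.61). IGFBP3 was nearest to DPH6 (difference 0.06, deviation 0.19). Within the system the smallest difference was between IGFBP3 and IGFBP4 (0.37), followed by IGF1R and IGF2R (0.42). For IGFBP3 and IGFBP4 it was above the deviation of IGFBP3 itself (0.19), so this is not a close match.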

How the data were processed

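Total RNA of the ovary of each of 6 goats was extracted with TRIzol and an NEBNext kit was used for the libraries, as the labels' protocols state. The authors deposited 1 table of FPKM values per goat. RSEM 1.2.0, Bowtie2 2.1.0 and TopHat2 2.0.10 appear in the submitters' processing notes, with no roles. The sources used here do not give build, annotation, strand or read length, and coordinates are left out. The file name of Tibetan 2 follows its own pattern, with no reason given. A whole-series table repeated the same values and was not used. Symbols came from RefSeq (ARS1.2): 16459 gene IDs matched directly, 9 by transcript accession, and 1036 had no match. FPKM was not rescaled, and a few abundant genes can lower the rest.

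The 13067 genes that reached 1 FPKM in 3 or more libraries were fitted with limma 3.58.1 in R 4.3.3 (intensity trend, breed as the only term, log2(FPKM + 1), 2-sided, Benjamini-Hochberg over all genes). A log2 fold change on that scale understates low genes. Each library is 1 goat, and no batch is labelled. The procedure was tested on simulated data. Shares, ratios and likeness are descriptions without a test, from pandas 2.3.3 and numpy 2.4.6 in Python 3.11.15, with figures from matplotlib 3.10.9. Named were all members, the 3 genes of each pathway list with the smallest p, IGFBP1, INSR, PAPPA, STC1, GHR, and the 3 genes nearest to each member, of which the nearest is given. The members and lists were chosen with earlier results of these data known. Alternatives were 2 other pseudocounts, 2 other filters, median-ratio and TPM scaling, no trend, the replicate number as a block, and leaving out each library.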

Additional observations from a re-analysis of the deposited data

How the results depend on the processing

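No member passed under any of the 14 alternatives run, and of 140 recomputed member fold changes 123 kept their sign. IGF1 and IGF2 stayed negative in all of them, IGF1 between -0.87 and -0.32 and IGF2 between -1.82 and -0.48 with 1 library left out; IGF2 had an unadjusted p of 0.0282 without Tibetan 2. Median-ratio scaling shifted the median over all genes from -0.10 to 0.02; under it IGFBP2 became 0.0048 and IGFBP4 0.033. With 1 library left out, values ran from -0.21 to 0.39 for IGF1R, -0.012 to 0.68 for IGF2R, -0.69 to 0.42 for IGFBP2, -0.074 to 0.20 for IGFBP3, -0.36 to 0.23 for IGFBP4, -0.93 to 0.88 for IGFBP5, -0.71 to 0.037 for IGFBP6 and -0.27 to 0.53 for IGFBP7. Over all genes, between 0 and 13 were called with 1 library left out (13 without Jintang 3), and 0 under the other settings, where 571 to 998 genes had an unadjusted p under 0.05. The mean shares of the binding proteins moved by less than 1 SD when a library was left out. Leaving out 1 library cannot move a mean over these libraries by 1 SD, so that result was fixed beforehand. It says nothing of how stable the shares are. The labels do not say whether the replicate numbers pair the goats. Same-numbered libraries deviated from their breed means with correlations of -0.02, -0.21 and -0.47. Deviations within a breed of 3 goats constrain each other, so these correlations cannot settle it. With the replicate number as a block 0 genes were called, 581 had an unadjusted p under 0.05, and IGF2 had an unadjusted p of 0.0336 (adjusted p = 0.952). The causes were not tested. Precision is limited by 3 goats per breed.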

Other observations

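Some genes around the IGF system were high in Jintang 2 alone. INSRR and IGF2BP2 were chosen after their values were seen, and none of them was tested, since they did not pass the filter on low values. INSRR, the insulin receptor-related receptor, was at 0.88, 44.8 and 0.81 FPKM in Jintang 1, 2 and 3, against 0.03, 0.73 and 0.69 FPKM in Tibetan 1, 2 and 3. IGF2BP2, an RNA-binding protein that binds IGF2 mRNA, was at 0.27, 5.55 and 0.47 FPKM in Jintang 1, 2 and 3, against 0.44, 0.38 and 0.60 FPKM in Tibetan 1, 2 and 3. PAPPA had the same shape, with 8.35 FPKM in Jintang 2, 0.47 and 0.22 FPKM in Jintang 1 and 3, and 0.17 to 0.42 FPKM in the Tibetan ovaries. The related PAPPA2 did not exceed 0.05 FPKM in any ovary, and IGF2BP3 did not exceed 0.59 FPKM.

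Within the growth hormone and IGF1R lists, the adaptor GRB14, which binds insulin family receptors, ranged widely in both breeds, at 3.71, 13.7 and 40.5 FPKM in Jintang 1, 2 and 3 and at 4.5, 30.01 and 42.4 FPKM in Tibetan 1, 2 and 3. PIK3R2, a regulatory subunit of phosphatidylinositol 3-kinase, stood at 163.5 FPKM in Jintang 1, with all remaining ovaries at 26.6 to 41.5 FPKM. Both were named after their values were seen, and neither passed the limma test (adjusted p over 0.05).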
